A study of Homo sapiens with 3 samples.

Results

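MESP1-positive cells were the cells of the day 2 and day 3 libraries in which at least 2 raw UMIs (unique molecular identifiers, each marking 1 captured mRNA molecule) of MESP1 were counted. They were chosen by the MESP1 count alone, among barcodes with at least 1000 detected genes and at most 20% mitochondrial UMIs. There were 6897 of them among the 15153 kept cells of the 2 days and the 18830 kept cells of the whole series. Day 2 gave 1587 of 7892 kept cells (20.1%, exact binomial 95% interval 19.2 to 21.0%) and day 3 gave 5310 of 7261 (73.1%, 72.1 to 74.1%).

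All cells were UCLA1, a human embryonic stem cell line in long use, sampled at day 2 and day 3 of the culture named GiMO, with Geltrex (a commercial basement membrane matrix) laid over the cells, and measured by droplet single-cell RNA-seq. The labels name no edited gene, reporter or second line, and each of days 1, 2 and 3 is 1 library. By its title the series asks how the timing of the BMP4 response bears on TFAP2A-positive cells and on EMT, the passage from epithelium to mesenchyme. Whether these cells received BMP4, and at what time, is not in the labels. With 1 library per day, day cannot be told apart from library or batch, so differences have no check by replicates and p-values are absent. All intervals are 95% intervals that cover counting error only. The question addressed was how the mRNA content of MESP1-positive cells differed between the days, beside the larger number of such cells at day 3.

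MESP1 is a basic helix-loop-helix transcription factor that is switched on in epiblast cells as they leave the primitive streak and enter mesoderm. It lies downstream of NODAL, WNT and BMP signalling and of the streak factors brachyury (TBXT) and EOMES. In the embryo MESP1 is known for a short burst of expression in cells that later give heart, head and other anterior and extraembryonic mesoderm. Leaving the streak goes with loss of E-cadherin and epithelial splicing factors, gain of vimentin and ZEB factors, and an ordered opening of the HOX clusters.

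MESP1 itself (ENSG00000166823, chromosome 15, 89749875 to 89751249 on hg38, minus strand) was used to choose the cells, so its level is a description. It stood at 305 counts per 1000000 UMIs (CPM) in the day 2 members and 397 CPM in the day 3 members, with medians of 5 and 7 and maxima of 28 and 61 UMIs per cell. Just inside the threshold, with 2 UMIs, were 304 cells at day 2 and 521 at day 3, and just outside it, with 1 UMI, 706 and 703. The day 3 members were somewhat deeper, with medians of 20813.5 against 17629 UMIs and 5679 against 5341 genes per cell. Members held 31566828 UMIs at day 2 and 120703207 at day 3, of which 21.2% and 19.9% were from ribosomal protein genes, and their median mitochondrial shares were 3.76% and 3.44%. When every kept cell was thinned at random to 5000 UMIs, at least 1 MESP1 UMI was found in 19.4% (18.5 to 20.3%) of day 2 cells and 63.3% (62.2 to 64.4%) of day 3 cells. At least 2 MESP1 UMIs were then found in 10.2% (9.47 to 10.9%) and 41.5% (40.4 to 42.7%). The 2 libraries shared 13 kept cell barcodes, of which 0 were MESP1-positive in both.

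Other markers of nascent mesoderm were read to check the label. Among day 2 cells MESP2, the neighbouring paralog of MESP1, stood at 19.5 CPM in the members and 0.636 CPM in cells with 0 MESP1 UMIs. GATA6 stood at 169 and 11.9 CPM, LHX1 at 92.7 and 6.54 CPM, and TBX6 at 23.6 and 1.35 CPM in the same classes. These mesoderm markers were therefore all more abundant in the MESP1-positive class of day 2. SOX2, a pluripotency factor that mesoderm lacks, ran the other way, at 26.5 CPM in the members and 102 CPM in cells with 0 MESP1 UMIs. MESP1 and MESP2 are close in sequence, so reads could be shared between them in the authors' counting.

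For the comparison of days, UMIs were summed over the members of each day and divided by their total. A gene was counted as higher or lower at day 3 where it reached 5 CPM in the higher day and differed by at least 2-fold. Of 11925 genes at that level, 630 were higher (5.28%) and 635 lower (5.32%) at day 3, and the median log2 ratio over all of them was 0.058. The shares 5.28% and 5.32% are the background against which each list count below is to be read. A gene under 5 CPM at day 2 can enter only by being higher at day 3. Counts over low lists such as HOX therefore describe the genes that reached the level and lend no support of their own. The same limit holds in reverse for genes under 5 CPM at day 3, such as SOX2, NANOG, FGF4 and FGF8. These could enter only by being lower, so counts of lower genes that include them are descriptions too.

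Genes of the primitive streak were lower or level in the day 3 members. Of 17 genes on that list all reached 5 CPM, 6 were at least 2-fold lower, 0 were higher and the median log2 ratio was -0.75. TBXT (ENSG00000164458, chromosome 6, 166157656 to 166168700), the T-box factor brachyury that drives mesoderm formation, stood at 167 CPM at day 2 and 65.4 CPM at day 3, 2.55-fold lower (2.46 to 2.64). NODAL (ENSG00000156574, chromosome 10, 70431936 to 70447951), the TGF-beta family ligand that induces the streak, was at 167 and 21.99 CPM, 7.61-fold lower (7.26 to 7.98). Both are needed for gastrulation, and both were lower in the day 3 cells.

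FGF4 (30.5 and 4.43 CPM) and FGF8 (10.1 and 2.27 CPM), the fibroblast growth factors of the streak, were 6.88-fold (6.19 to 7.66) and 4.45-fold (3.78 to 5.25) lower. The homeobox genes NKX1-2 (41.6 and 6.69 CPM) and CDX1 (51.9 and 19.2 CPM) were 6.21-fold and 2.71-fold lower. MIXL1 (ENSG00000185155, chromosome 1, 226223618 to 226227060), a homeobox factor activated by NODAL and BMP signals, stood at 669 and 397 CPM, 1.68-fold lower (1.66 to 1.71) and short of the 2-fold rule. The list thus did not move as a block. EOMES, a T-box factor upstream of MESP1, was at 143 CPM on both days, CER1, a secreted NODAL and BMP antagonist, at 142 and 137 CPM, and WNT3 at 96.4 and 92.7 CPM. GSC, the organizer homeobox gene, was at 26.0 and 13.2 CPM.

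**Figure D1:**
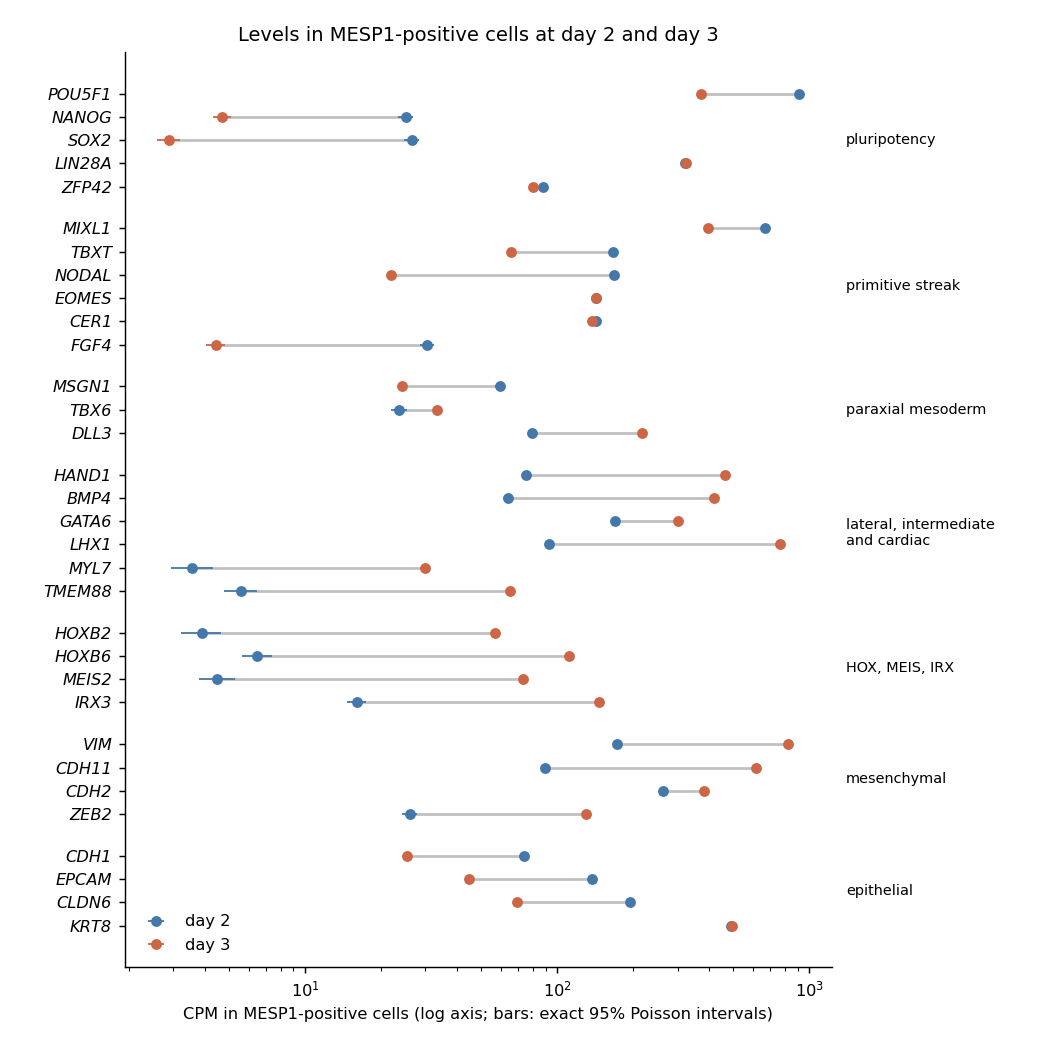
Levels of 32 genes in MESP1-positive cells, in CPM on a log axis, at day 2 (blue) and day 3 (orange), with exact 95% Poisson intervals that are often smaller than the points. TBXT, NODAL, SOX2 and CDH1 lie to the left at day 3, LHX1, HAND1, HOXB6 and CDH11 to the right, and EOMES, LIN28A and KRT8 are level.

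Pluripotency genes were split. Of 15 core genes at 5 CPM (of 17 on the list), 6 were at least 2-fold lower and 0 higher, with a median log2 ratio of -0.94. SOX2 (ENSG00000181449, chromosome 3, 181711925 to 181714436) was at 26.5 and 2.88 CPM, 9.17-fold lower (8.09 to 10.4), and NANOG at 25.1 and 4.68 CPM, 5.35-fold lower (4.80 to 5.97). POU5F1, which encodes OCT4 and persists into the streak in embryos, was at 906 CPM at day 2 and still 371 CPM at day 3, 2.44-fold lower (2.41 to 2.48). Its pseudogenes could share reads with it in the counting.

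The other genes of the core list that were lower were the chromatin factor UTF1 (8.48-fold), USP44 (5.196-fold) and DPPA4 (2.04-fold). LIN28A, an RNA-binding protein that blocks let-7 processing, was at 319.8 and 324 CPM, its paralog LIN28B at 166 and 216 CPM, SALL4 at 125 and 167 CPM and ZFP42 at 88.2 and 80.1 CPM. Loss of the SOX2 and NANOG messages thus came without a like difference in these 4 genes. They are 4 of the 9 core genes not called, and others of the 9 lay nearer 2-fold lower, as the list median of -0.94 shows. DPPA4 was just under 2-fold lower (log2 -0.95 to -0.99) when at least 5 MESP1 UMIs were required, when likely doublets were removed and under median-of-ratios scaling. Of 10 genes of the primed epiblast 2 were at least 2-fold lower, ZIC2 (99.4 and 48.0 CPM) and SFRP2 (236 and 92.1 CPM), and OTX2 (18.9 and 24.2 CPM) was not.

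Genes of lateral, extraembryonic and intermediate mesoderm were higher in the day 3 members. Of 8 lateral and extraembryonic genes at 5 CPM (of 12), 6 were at least 2-fold higher and 0 lower, with a median log2 ratio of 2.18. HAND1 (ENSG00000113196, chromosome 5, 154474972 to 154478227), a basic helix-loop-helix factor of lateral and extraembryonic mesoderm, was at 75.4 and 461 CPM, 6.11-fold higher (5.87 to 6.37). BMP4 (ENSG00000125378, chromosome 14, 53949736 to 53958761), a ligand of the same tissues, was at 63.6 and 419 CPM, 6.58-fold higher (6.29 to 6.88). LHX1 (ENSG00000273706, chromosome 17, 36936785 to 36944612), a LIM homeobox factor of nascent and intermediate mesoderm, was at 92.7 and 767 CPM, 8.28-fold higher (7.98 to 8.60).

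GATA4, a zinc-finger factor of heart and endoderm, was at 36.4 and 113 CPM, 3.09-fold higher, and FOXF1, a forkhead factor of lateral mesoderm, at 5.61 and 18.8 CPM, 3.35-fold higher. TBX20 (2.09 and 14.8 CPM) and PRRX1 (0.824 and 6.45 CPM), factors of heart and of limb and other mesenchyme, were 7.08-fold and 7.83-fold higher. TBX20 and PRRX1 passed 5 CPM only at day 3, so they could enter only by being higher. GATA6 (169 and 300.02 CPM) and TBX3 (71.4 and 141 CPM) missed the 2-fold rule at 1.78-fold and 1.97-fold. Of 3 intermediate mesoderm genes at 5 CPM (of 6), 2 were higher, LHX1 and PAX2, a kidney lineage factor (2.53 and 14.7 CPM). PAX2 too passed 5 CPM only at day 3. OSR1, PAX8 and WT1, the other kidney lineage genes on the list, stayed under 5 CPM on both days, as did the fibroblast genes LUM and POSTN.

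Heart genes that reached 5 CPM numbered 7 of 12, and each of the 7 was at least 2-fold higher at day 3, with a median log2 ratio of 2.87. MYL7, an atrial myosin light chain, was at 3.58 and 29.9 CPM, ACTC1, cardiac actin, at 16.9 and 86.96 CPM, and TMEM88, a WNT inhibitor of the cardiac lineage, at 5.58 and 65.2 CPM. NKX2-5, the cardiac homeobox factor, was at 1.65 and 12.1 CPM, 7.32-fold higher (5.55 to 9.85). At its day 2 level NKX2-5 could enter the 7 only by being higher, and MYL7 too passed 5 CPM only at day 3. GATA4 and TMEM88 are also on other lists, so the count lends no support of its own. The 5 heart genes under 5 CPM were TNNT2, TBX5, MEF2C, TNNI1 and HAND2, and TNNT2, the troponin that marks beating muscle, stood at 1.55 and 0.953 CPM. ISL1 (10.8 and 25.5 CPM) fell short of 2-fold (log2 0.93) among cells with at least 5 MESP1 UMIs.

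Paraxial mesoderm genes, which act in the presomitic mesoderm and somites, went in both directions. Of 9 at 5 CPM (of 14), 2 were at least 2-fold higher and 2 lower. MSGN1 was at 59.2 and 24.2 CPM, 2.45-fold lower (2.31 to 2.59), but only just under 2-fold (log2 -0.99) among cells with at least 1 MESP1 UMI. TCF15 was at 8.17 and 3.86 CPM, 2.12-fold lower (log2 -0.90 with at least 5 MESP1 UMIs and -0.94 with each cell counting once). DLL3, a Notch ligand, was at 79.7 and 218 CPM, 2.73-fold higher (2.62 to 2.85), and MESP2 at 19.5 and 43.6 CPM, 2.23-fold higher. MESP2 was not 2-fold higher among cells with at least 5 MESP1 UMIs (log2 0.89) or with day 3 weighted to the day 2 MESP1 counts (0.94). TBX6 was at 23.6 and 33.3 CPM and the somite factor MEOX1 under 0.1 CPM on both days (3 and 5 UMIs).

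HOX genes set the position of cells along the body axis and lie in 4 clusters. Of 39 HOX genes on the list, 16 reached 5 CPM in either day, 15 of these were at least 2-fold higher at day 3, 0 were lower, and the other 23 stayed under that level. HOXB6 (ENSG00000108511, chromosome 17, 48595751 to 48604992) was at 6.46 and 111 CPM, 17.2-fold higher (15.0 to 19.8), and HOXB2 at 3.90 and 56.8 CPM, 14.6-fold higher (12.2 to 17.6). HOXB5 was at 1.17 and 31.7 CPM, HOXB8 at 1.01 and 24.8 CPM, HOXB9 at 2.03 and 24.1 CPM and HOXB3 at 0.919 and 23.9 CPM. Each gene of the run from HOXB2 to HOXB9, which spans 48540894 to 48626358 on chromosome 17, was higher in the day 3 cells.

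Outside the HOXB cluster, HOXA10 (ENSG00000253293, chromosome 7) was at 0.760 and 15.4 CPM, HOXD11 at 0.507 and 8.20 CPM and HOXC8 at 0.158 and 6.65 CPM. HOXA11 rested on 2 UMIs at day 2, with a ratio of 84.5 (23.3 to 699). HOXB-AS3, an antisense transcript that overlaps HOXB genes, was at 0.950 and 21.6 CPM, and its reads and theirs may have been split in the counting. Among cells with at least 5 MESP1 UMIs the HOXB ratios were smaller, with log2 3.50 for HOXB6 (4.10 in all members), 3.17 for HOXB2 (3.87) and 3.55 for HOXB4 (4.62).

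Partners of HOX proteins differed as well. MEIS2, a TALE homeobox cofactor, was at 4.50 and 73.2 CPM, 16.3-fold higher (13.8 to 19.4), and MEIS1 at 1.84 and 19.5 CPM, 10.6-fold higher (8.17 to 14.0). IRX3, an Iroquois homeobox factor, was at 16.1 and 146 CPM, 9.11-fold higher, and IRX5 at 0.855 and 7.14 CPM. PBX3 (165 and 236 CPM), a further TALE partner, and CDX2 (27.0 and 23.9 CPM), a caudal regulator of HOX genes, did not reach 2-fold. Of 12 CDX, MEIS, PBX and IRX genes at 5 CPM (of 13), 4 were higher and 1 lower. MEIS1, MEIS2 and IRX5 passed 5 CPM only at day 3, so they could enter this count only by being higher.

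Promoters are shown for 5 regulators of the stages described here that are in the RefSeq table used (GRCh38.p14): TBXT, NODAL and SOX2, lower at day 3, and HAND1 and HOXA10, higher. They were chosen by hand after their levels had been seen, by no ranking, and these data hold no measurement on promoters. Each window has 300 bases, 250 before and 50 after the annotated start, printed 5′ to 3′ on the gene's strand. They lie at chr6:166168606-166168905 (minus strand), chr10:70441632-70441931 (minus), chr3:181711675-181711974 (plus), chr5:154478178-154478477 (minus) and chr7:27179812-27180111 (minus). Capitals mark matches, on either strand, to CANNTG (the E-box that basic helix-loop-helix factors such as MESP1 and HAND1 read), AGGTGTGA (a T-box half-site), TGACAG (a MEIS core), AGATAA (read by zinc-finger factors such as GATA4) and TATAA. The last pattern, the core of the TATA box, was added after the sequences had been seen.
TBXT: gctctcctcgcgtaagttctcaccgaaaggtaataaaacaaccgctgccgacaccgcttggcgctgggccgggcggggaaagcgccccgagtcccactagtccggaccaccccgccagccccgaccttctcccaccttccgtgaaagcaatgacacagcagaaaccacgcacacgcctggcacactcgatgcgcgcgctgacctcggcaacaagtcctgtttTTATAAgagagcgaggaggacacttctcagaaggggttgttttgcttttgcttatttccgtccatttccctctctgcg
NODAL: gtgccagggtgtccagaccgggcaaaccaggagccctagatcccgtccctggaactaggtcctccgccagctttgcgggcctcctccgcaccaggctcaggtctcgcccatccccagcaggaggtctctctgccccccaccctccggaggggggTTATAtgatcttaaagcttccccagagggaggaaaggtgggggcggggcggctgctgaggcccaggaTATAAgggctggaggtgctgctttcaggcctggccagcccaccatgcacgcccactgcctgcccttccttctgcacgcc
SOX2: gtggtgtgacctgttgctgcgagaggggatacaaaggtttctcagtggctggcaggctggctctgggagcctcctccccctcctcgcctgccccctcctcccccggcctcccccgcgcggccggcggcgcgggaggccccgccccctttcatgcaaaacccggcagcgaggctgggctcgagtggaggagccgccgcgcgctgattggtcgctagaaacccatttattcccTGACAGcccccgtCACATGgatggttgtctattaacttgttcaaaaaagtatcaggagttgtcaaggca
HAND1: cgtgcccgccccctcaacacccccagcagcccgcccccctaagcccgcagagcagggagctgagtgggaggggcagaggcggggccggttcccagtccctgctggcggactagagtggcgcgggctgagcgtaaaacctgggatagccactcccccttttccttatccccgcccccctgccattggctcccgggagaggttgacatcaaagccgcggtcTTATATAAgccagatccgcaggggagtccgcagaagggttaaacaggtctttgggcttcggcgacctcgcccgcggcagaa
HOXA10: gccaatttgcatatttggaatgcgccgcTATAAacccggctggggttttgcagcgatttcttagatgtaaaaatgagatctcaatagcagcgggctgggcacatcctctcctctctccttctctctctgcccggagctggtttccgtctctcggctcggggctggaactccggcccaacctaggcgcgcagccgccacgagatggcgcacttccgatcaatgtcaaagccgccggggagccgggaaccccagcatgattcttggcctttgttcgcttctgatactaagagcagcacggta
The TBXT, NODAL and HAND1 windows each held 2 TATAA matches, overlapping in TBXT and HAND1, and HOXA10 held 1. SOX2 held 1 E-box and 1 MEIS match and no TATAA. These matches are letters only and say nothing of binding.

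The same letters were counted over all 27305 promoters of the table and over the genes that differed. TATAA was in 21.1% of all promoters, in 10.8% of those of the 9225 matched genes at 5 CPM, in 15.7% of the 428 matched higher genes and in 15.0% of the 414 matched lower genes. The E-box was in 68.9%, 59.1%, 61.4% and 70.5% of the same sets, and the GATA core in 10.5%, 4.89%, 7.71% and 6.28%. The MEIS core was in 15.9%, 12.7%, 17.1% and 13.5%, and the T-box half-site in 0.982%, 0.694%, 1.17% and 0.725%. No test was made of these shares.

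Genes of the mesenchymal state were higher and genes of epithelia lower in the day 3 members. Of 15 mesenchymal genes at 5 CPM (of 16), 9 were at least 2-fold higher and 0 lower (median log2 ratio 1.35). Of 17 epithelial genes (of 22), 12 were at least 2-fold lower and 0 higher (median -1.54). VIM (ENSG00000026025, chromosome 10, 17228241 to 17237593), the gene of vimentin, an intermediate filament protein, was at 172 and 821 CPM, 4.77-fold higher (4.64 to 4.90). CDH11 (ENSG00000140937, chromosome 16, 64943753 to 65126112), a mesenchymal cadherin, was at 89.7 and 614 CPM, 6.84-fold higher (6.59 to 7.11).

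The EMT transcription factors were not alike. ZEB1 (13.6 and 76.9 CPM) and ZEB2 (26.0 and 131 CPM), zinc-finger repressors of E-cadherin, were 5.64-fold and 5.03-fold higher, and SNAI2 (7.86 and 34.0 CPM) was 4.33-fold higher. TWIST1 was at 7.03 and 17.9 CPM, 2.54-fold higher. SNAI1, the repressor first used at the streak, was at 34.5 and 58.2 CPM, 1.69-fold higher, and TWIST2 at 7.73 CPM on both days. CDH2, which encodes N-cadherin, was already at 264 CPM at day 2 and at 383 CPM at day 3, 1.45-fold higher. FN1, fibronectin, was at 128 and 158 CPM.

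CDH1 (ENSG00000039068, chromosome 16, 68737292 to 68835537), which encodes E-cadherin, was at 73.9 and 25.4 CPM, 2.91-fold lower (2.75 to 3.07). EPCAM, an epithelial adhesion molecule, was at 138 and 44.7 CPM, 3.08-fold lower, and the splicing factor ESRP1 at 76.0 and 18.4 CPM, 4.14-fold lower. The tight junction genes CLDN6 (194 and 69.4 CPM), CLDN7 (74.9 and 20.7 CPM) and OCLN (9.88 and 2.95 CPM) were 2.80-fold, 3.62-fold and 3.35-fold lower. GRHL2, a grainyhead factor that holds cells epithelial, was at 42.3 and 14.3 CPM. The scaffold gene TJP1 (136 and 119 CPM), the desmosome gene DSP (93.1 and 118 CPM) and the keratins KRT8 (490 and 492 CPM) and KRT19 (228 and 264 CPM) did not follow the junction genes.

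Among receptors for the matrix, ITGA6, the laminin receptor subunit of epithelia, was at 25.7 and 7.12 CPM, 3.61-fold lower (3.28 to 3.98). ITGA5, the fibronectin receptor subunit, was at 36.1 and 133 CPM, 3.68-fold higher (3.46 to 3.91). Among the laminins, LAMA1 was at 27.8 and 76.8 CPM and LAMB1 at 31.1 and 65.6 CPM, while LAMC1 was at 57.1 and 62.8 CPM. Of 16 basement membrane and integrin genes at 5 CPM (of 20), 4 were higher and 1 lower.

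**Figure D2:**
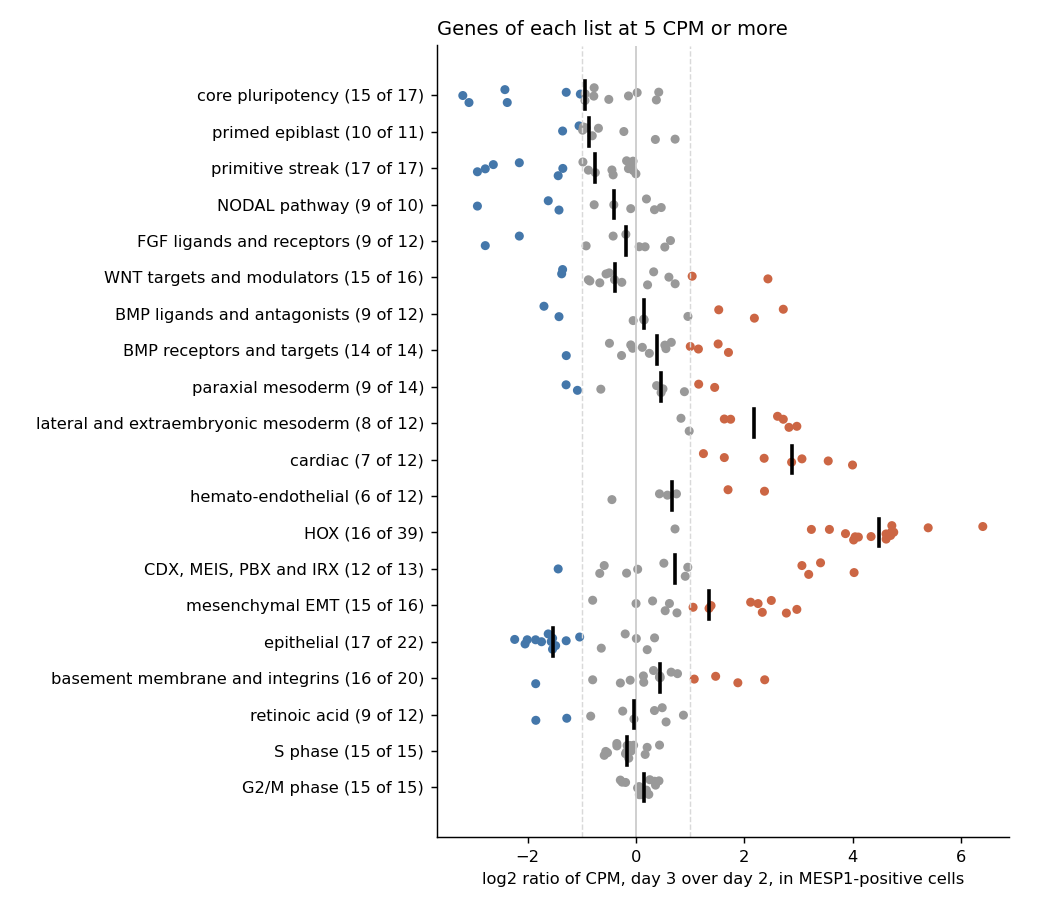
Log2 ratio of CPM, day 3 over day 2, for each gene of 20 lists that reached 5 CPM in MESP1-positive cells; labels give how many of the list's genes did. Black bars are list medians, dashed lines mark 2-fold, and orange and blue points are at least 2-fold higher or lower. The HOX, heart and lateral mesoderm points lie right of the 2-fold line in most cases, the epithelial points left of it, and both cell cycle lists lie within it.

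Ligands and targets of the signalling pathways were read next. In the NODAL pathway 3 of 9 genes at 5 CPM were lower and 0 higher: NODAL, its antagonist LEFTY1 (13.9 and 4.52 CPM) and GDF3 (21.9 and 8.17 CPM), a ligand of the same branch. The co-receptor gene TDGF1 was at 205 and 120 CPM and the nuclear partner gene FOXH1 at 178 and 134 CPM. The pathway's receptor gene ACVR2B (44.3 and 50.6 CPM) differed little.

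Among BMP ligands and antagonists, BMP4 was higher, as above, and BMP2 was at 75.4 and 146 CPM, 1.94-fold higher (1.86 to 2.03). BMPER, a secreted BMP-binding protein, was at 90.3 and 410.4 CPM, 4.55-fold higher, while BMP7 was at 22.7 and 6.98 CPM, 3.25-fold lower. Of 9 ligands and antagonists at 5 CPM (of 12), 3 were higher and 2 lower. The antagonists NOG, CHRD and GREM1 stayed under 5 CPM on both days. Of 14 BMP receptor and target genes, 4 were higher and 1 lower. The targets MSX1 (71.2 and 232 CPM) and SMAD6 (40.5 and 89.9 CPM) were 3.26-fold and 2.22-fold higher, ID1 (406 and 166 CPM) was 2.44-fold lower, and ID3 was at 518 and 561 CPM.

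WNT ligands of the streak, WNT3 and WNT8A (12.2 and 11.5 CPM), were level, whereas WNT5A, a ligand of non-canonical signalling, was at 64.1 and 161 CPM, 2.51-fold higher (2.40 to 2.63). WNT4 was at 0.380 and 8.07 CPM, and these 2 of 7 ligand genes at 5 CPM (of 11) were the ones called higher, with 0 lower. At its day 2 level WNT4 could enter only by being higher. Among the targets and modulators, LGR5, an R-spondin receptor, was at 32.0 and 173 CPM, 5.40-fold higher (5.07 to 5.76), DKK1, a WNT antagonist, at 84.8 and 32.8 CPM, 2.59-fold lower, and AXIN2 at 21.3 and 16.1 CPM. LEF1 was at 67.3 and 111 CPM, 1.65-fold higher. Of 15 such genes at 5 CPM 2 were higher and 2 lower.

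In the FGF pathway the ligands FGF4 and FGF8 were lower, and the feedback genes SPRY1 (16.7 and 105 CPM) and DUSP6 (24.7 and 58.1 CPM) were 6.30-fold and 2.35-fold higher. The receptor gene FGFR1 was at 167 and 241 CPM. Of 9 FGF ligand and receptor genes at 5 CPM 0 were higher and 2 lower, and of 10 feedback genes 2 were higher and 0 lower. APLNR, the apelin receptor of migrating mesoderm, was at 54.4 and 297 CPM, 5.46-fold higher (5.20 to 5.74), and its ligand gene APELA, made by pluripotent cells, at 11.3 and 1.69 CPM, 6.69-fold lower (5.62 to 7.99). PDGFRA was at 39.3 and 81.5 CPM, 2.07-fold higher (log2 0.61 with at least 5 MESP1 UMIs), and its ligand gene PDGFA at 17.5 and 4.78 CPM, 3.65-fold lower. In these receptor and ligand pairs the receptor was thus higher and the ligand lower at day 3. FLT1, a VEGF receptor, was at 30.3 and 109.6 CPM, 3.61-fold higher, and KDR at 40.4 and 67.7 CPM. Of 9 genes of this apelin, PDGF and VEGF list at 5 CPM, 4 were higher and 2 lower. The 4 were APLNR, PDGFRA, FLT1 and TMEM88, the WNT inhibitor also counted among the heart genes, which the list holds as well.

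Retinoic acid genes gave 0 higher and 2 lower of 9 at 5 CPM, namely CRABP1 (50.4 and 20.8 CPM) and DHRS3 (5.195 and 1.44 CPM). CYP26A1, which breaks retinoic acid down, was at 68.1 and 38.1 CPM, and ALDH1A2, which makes it, at 5.54 and 10.2 CPM. In the Notch list DLL3 and HEY2 (14.9 and 65.8 CPM) were the 2 genes higher of 10.

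Markers of other cell types that the cultures could hold were read in the members of both days. For definitive endoderm SOX17 was at 10.9 and 7.61 CPM, while FOXA2 was at 0.444 and 0.505 CPM, HHEX at 1.30 and 0.812 CPM and CXCR4 at 0.444 and 4.09 CPM. Of 5 endoderm genes at 5 CPM (of 10) GATA4, which mesoderm also uses, was the 1 higher. The list, GATA4 included, summed to 213 and 280.2 CPM, of which SOX17, FOXA2, HHEX and CXCR4 made up a small part. For the hemato-endothelial lineage ETV2 was at 2.09 and 3.64 CPM and TAL1 at 0 and 0.00828 CPM (0 and 1 UMIs). Of 6 genes at 5 CPM GATA2 (3.90 and 12.6 CPM) and FLI1 (1.58 and 8.19 CPM) were higher. GATA2 and FLI1 passed 5 CPM only at day 3, so they could enter only by being higher. For amnion TFAP2A, the factor of the title, was at 16.7 and 6.01 CPM, 2.78-fold lower (2.48 to 3.11), and GABRP and VTCN1 stayed under 5 CPM. Of 5 amnion genes at 5 CPM (of 12) 1 was higher, ISL1, and 2 lower, TFAP2A and TFAP2C, and the list summed to 118 and 121 CPM.

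Of the germ cell list 4 of 10 genes reached 5 CPM, with 0 higher and TFAP2C lower, and NANOS3 at 2.06 and 1.36 CPM. Of 9 trophoblast genes 0 reached it, and the list summed to 2.47 and 1.89 CPM. Of 8 neural genes 1 reached it, NES. SOX1, a neural marker, had 0 UMIs on either day and PAX6 3 and 4 UMIs. Removing the cells with any SOX17 or FOXA2 UMI left 634 genes higher and 653 lower.

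Cell cycle genes were level: of 15 S phase and 15 G2/M genes 0 and 0 were at least 2-fold different, with median log2 ratios of -0.17 and 0.14. The p53 list also gave 0 of 8. Of 6 integrated stress response genes 3 were lower, CHAC1 (10.8 and 2.76 CPM), PSAT1 (249.8 and 109.8 CPM) and DDIT4 (9.12 and 3.72 CPM), and of 14 hypoxia and glycolysis genes ADM (10.4 and 1.45 CPM) and ENO2 were lower and PFKP higher. Of 9 immediate early and dissociation stress genes, JUN (4.47 and 12.3 CPM) and JUNB (3.48 and 8.43 CPM) were higher, EGR1 (7.79 and 3.67 CPM) lower, and FOS was at 10.2 and 6.94 CPM. Their part in the other differences was not tested.

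Ranked over all genes with at least 10 CPM by the end of the interval nearest 1, the 12 highest included 5 HOXB genes (HOXB3, HOXB5, HOXB6, HOXB7 and HOXB8) and HOXB-AS3. The others were RGS13, a regulator of G-protein signalling, the kinase gene ZAP70, the neuregulin gene NRG2, SNPH and the homeobox genes EMX1 and HLX. ZAP70 was at 0.634 and 30.4 CPM, 48.0-fold higher (31.0 to 78.7), and NRG2 at 4.09 and 112 CPM, 27.4-fold higher (23.0 to 32.8). RGS13 rested on 1 UMI at day 2, with a ratio of 355 (63.6 to 14028), and stood at 11.2 CPM at day 3. HLX was at 0.697 and 17.2 CPM and EMX1 at 0.444 and 12.9 CPM.

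The 12 lowest were SOX2, NODAL, FGF4 and 9 genes outside the lists. LINC00678, a long non-coding RNA, was at 88.8 and 8.28 CPM, 10.7-fold lower (9.96 to 11.5), and CAV1, which encodes the membrane protein caveolin, at 85.1 and 8.33 CPM, 10.2-fold lower (9.50 to 10.999). LNCPRESS1, a non-coding RNA of pluripotent cells, was at 35.8 and 3.96 CPM. The others were C9orf135, GLIPR1L1, AL591742.2, AP002856.2, VGF and TIMP4, between 7.62-fold and 8.81-fold lower.

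The members were then set beside the other cells of the same libraries. Both comparisons use the same 2 libraries, so their values are given side by side and no overlap is counted. In cells with 0 MESP1 UMIs, 1002 genes of 12291 at 5 CPM were at least 2-fold higher and 425 lower at day 3, and over all kept cells 859 and 903 of 12151. MIXL1 was at 355 and 354 CPM over all kept cells but at 669 and 397 CPM in the members, and CER1 at 48.8 and 115 CPM over all cells but at 142 and 137 CPM in the members. The streak list had a median log2 ratio of 0.00 over all kept cells, -0.75 in the members and -0.42 in cells with 0 MESP1 UMIs. Each median is over the genes at 5 CPM in that class. In cells with 1 MESP1 UMI, MIXL1 was at 490 and 237 CPM, TBXT at 112 and 37.7 CPM and CER1 at 52.3 and 47.0 CPM. In cells with 0, MIXL1 was at 227 and 170 CPM and TBXT at 46.9 and 30.3 CPM. Lower MIXL1 and TBXT were thus not particular to the members.

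Of the lists that were higher at day 3, 4 are set beside the other classes here. Their medians were larger in cells with 0 MESP1 UMIs and over all kept cells, which include the members. Each median is over the genes at 5 CPM in that class, so the gene sets can differ between classes. The HOX median was 4.48 in the members, 5.78 over all kept cells and 7.16 in cells with 0 MESP1 UMIs. The lateral and extraembryonic median was 2.18, 3.63 and 5.61 in the same classes, the mesenchymal median 1.35, 2.47 and 3.16, and the cardiac median 2.87, 3.33 and 4.59. The epithelial median was -1.54, -1.47 and -0.40, and the core pluripotency median -0.94, -1.25 and -0.85.

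To show what a change in cell mix alone would give, the day 2 levels of cells with 0, 1 and at least 2 MESP1 UMIs were weighted by the shares of UMIs that these classes held at day 3. For CER1 and EOMES the weighted values, 118 and 133 CPM, lay near the 115 and 129.8 CPM observed over all day 3 cells. For MIXL1 the weighted value was 596 CPM against 354 CPM observed, and for TBXT 147 against 58.5 CPM. For LHX1 it was 75.6 against 656 CPM, for HAND1 62.1 against 446 CPM, for HOXB6 5.36 against 109.9 CPM and for VIM 174 against 815 CPM. SOX2 gave 38.3 CPM weighted and 6.60 CPM observed. The 3 classes are broad, so this weighting does not account for mix within a class.

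**Figure D3:**
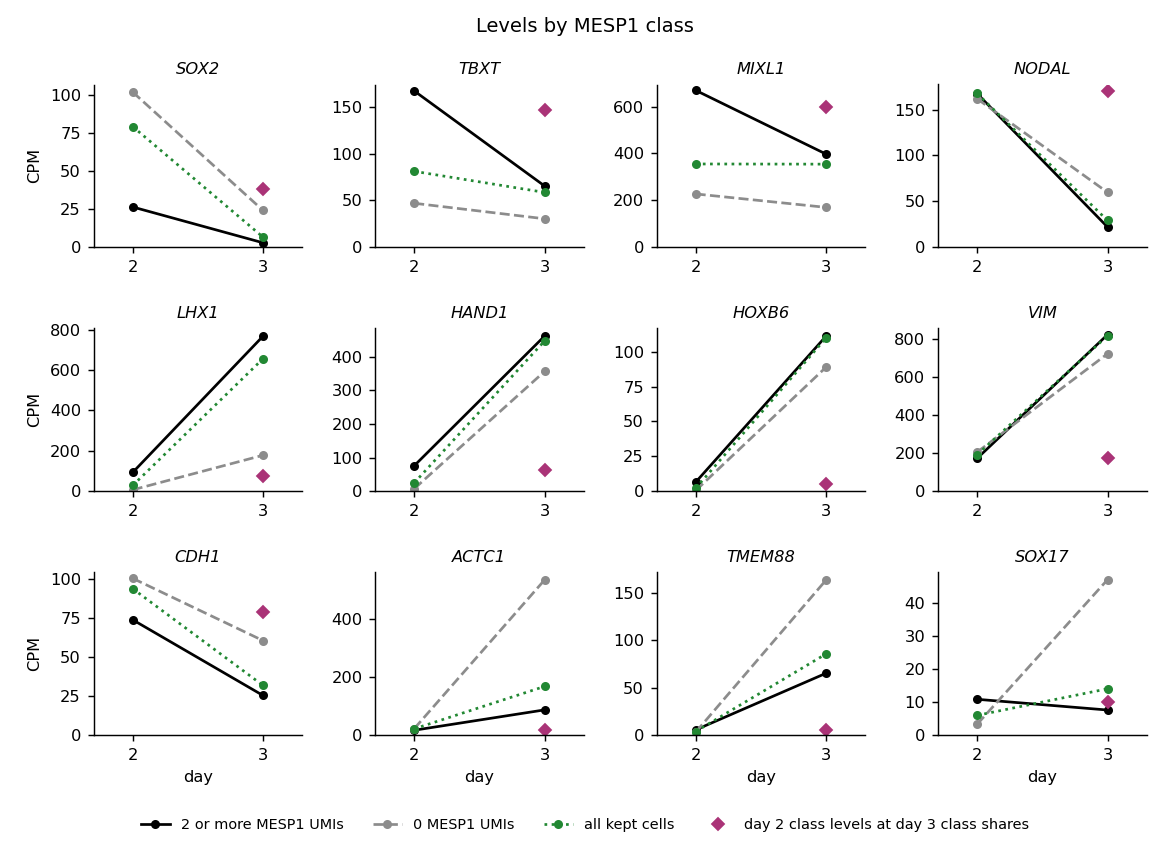
CPM of 12 genes at day 2 and day 3 in MESP1-positive cells (black), cells with 0 MESP1 UMIs (grey, dashed) and all kept cells (green, dotted), with linear axes from 0 and no error bars because each point is 1 library. Diamonds are the day 3 values that day 2 class levels would give at the day 3 class shares. MIXL1 is level over all cells (355 and 354 CPM) but lower in the MESP1-positive cells and in those with 0 MESP1 UMIs (227 and 170 CPM). The LHX1, HAND1, HOXB6 and VIM diamonds lie far below the observed day 3 points.

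Some genes were more abundant at day 3 in cells without MESP1 UMIs. ACTC1 was at 22.2 and 534 CPM in cells with 0 MESP1 UMIs against 16.9 and 86.96 CPM in the members, and TMEM88 at 3.12 and 163 against 5.58 and 65.2 CPM. PRRX1 (1.11 and 54.0 CPM), TBX20 (0.548 and 44.6 CPM) and HAND2 (0.263 and 37.6 CPM), which act in limb, heart and lateral mesoderm, stood in the same way, with 6.45, 14.8 and 2.71 CPM in the day 3 members. SOX17 was at 3.32 and 47.1 CPM in cells with 0 MESP1 UMIs, PRDM1 at 5.24 and 39.9 CPM, and TFAP2A at 14.5 and 20.6 CPM. The 1248 day 3 cells with 0 MESP1 UMIs are a mixed class chosen only by the absence of a count.

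The genes whose log2 ratio in the members lay furthest above that over all kept cells were MPPED2, TMEM132B, SYN3, AASS, DGKB and ABCA1. SYN3 was at 42.5 and 199 CPM in the members and 83.4 and 184 CPM over all cells, and DGKB at 2.79 and 42.7 CPM against 5.35 and 42.7 CPM. TMEM132B was at 37.2 and 22.3 CPM in the members and 91.1 and 25.3 CPM over all cells. Those furthest below were HOXB5, HOXB8, HOXB-AS3, RSPO3, AC026167.1 and AC087857.1. RSPO3, a WNT agonist, was at 67.5 and 103 CPM in the members and 18.0 and 93.0 CPM over all cells.

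Cells were also compared at matched MESP1 counts. Among cells with exactly 2 MESP1 UMIs LHX1 was at 44.96 CPM at day 2 and 592 CPM at day 3, among those with 5 to 9 at 119 and 859.6 CPM, and among those with 20 or more at 219.9 and 649 CPM. HAND1 was at 26.8 and 517 CPM, 81.7 and 461 CPM, and 331 and 453 CPM in the same bins. TBXT was at 159 and 36.6 CPM, 170.4 and 62.3 CPM, and 169 and 92.8 CPM. In each of the 5 bins LHX1 and HAND1 were higher and TBXT, MIXL1 and NODAL lower at day 3. SOX2 was lower in the 4 bins under 20 UMIs. The top bin held 24 cells at day 2 and 360 at day 3, with 2 and 28 SOX2 UMIs, a ratio of 0.544 (0.137 to 4.71) that leaves the direction undetermined.

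Other genes were set against the MESP1 count. At day 2 HAND1 ran from 26.8 CPM at 2 MESP1 UMIs to 331 CPM at 20 or more, HOXB2 from 1.18 to 24.7 CPM, MSGN1 from 24.6 to 160.3 CPM and GATA6 from 80.7 to 325 CPM. At day 3 HAND1 was nearly flat, at 517 and 453 CPM, and HOXB2 stood at 72.5 CPM at 2 UMIs and 47.7 CPM at 20 or more. MEIS2 stood at 127 and 44.9 CPM in these bins at day 3, TMEM88 at 152 and 44.5 CPM and VIM at 1013 and 635 CPM. ACTC1 was at 198 CPM at 2 UMIs, 61.3 CPM at 10 to 19 and was at 84.4 CPM at 20 or more. MSGN1 ran up with the MESP1 count on both days, at day 3 from 11.8 to 52.9 CPM. Median depth was 17334 and 17706.5 UMIs in the lowest and highest of these bins at day 2 but 18246 and 31858 at day 3, and its part in these relations was not tested.

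**Figure D4:**
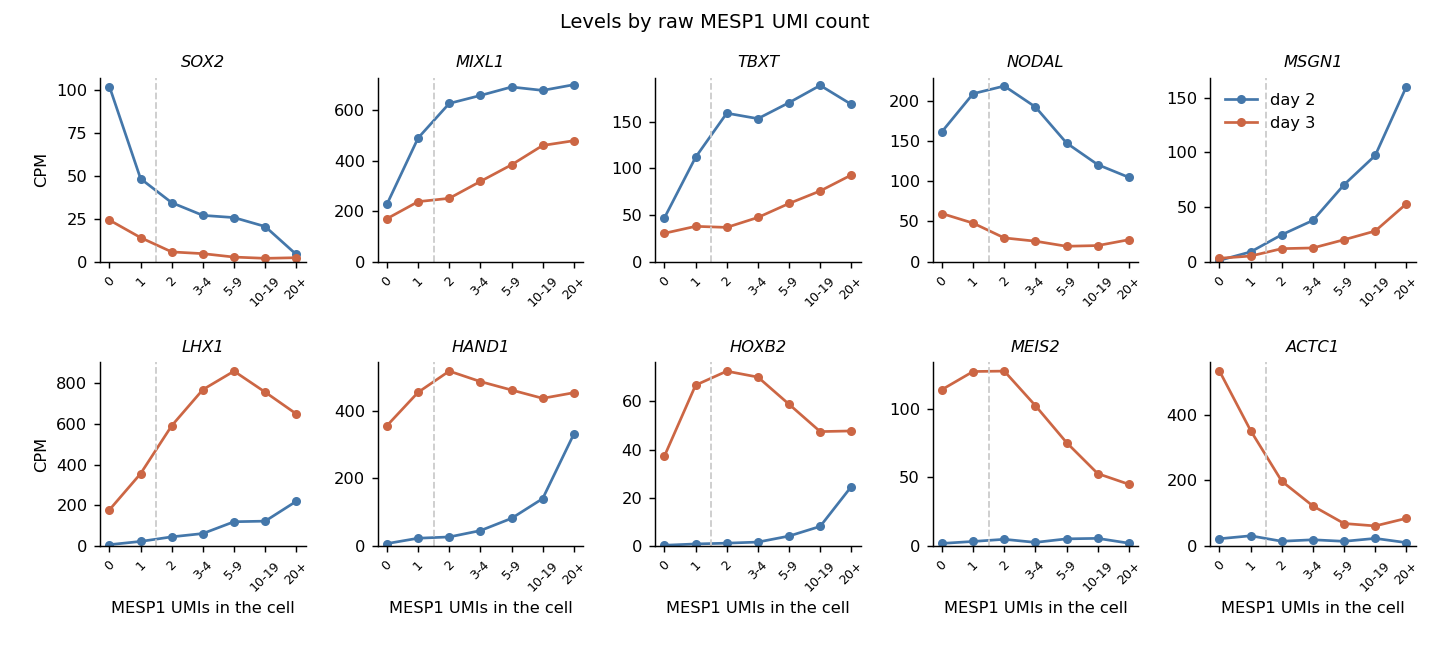
CPM of 10 genes by raw MESP1 UMI count per cell at day 2 (blue) and day 3 (orange), linear axes from 0; points right of the dashed line are MESP1-positive, and each point sums all cells of the bin in 1 library. Day 2 and day 3 lie apart for LHX1, HAND1, NODAL and TBXT at each count of 2 or more, and at day 3 MEIS2 is at 127 CPM at 2 UMIs and 44.9 CPM at 20 or more.

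Cell by cell, shares were read after each cell had been thinned to 5000 UMIs, which left out 1 day 2 and 5 day 3 members. At least 1 LHX1 UMI was found in 26.5% (24.3 to 28.7%) of 1586 day 2 members and 75.3% (74.1 to 76.4%) of 5305 day 3 members. Without thinning the shares were 48.4% and 87.1%. For comparison, cells with at least 1 SOX2 UMI and 0 MESP1 UMIs gave 1.75% at day 2 and 10.2% at day 3 after thinning, with median depths of 17256 and 20512 UMIs. This comparison class, 176 cells at day 3, is a background only for genes that such cells lack, such as LHX1 and HAND1.

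HAND1 was found in 22.2% and 75.3% of the members after thinning (41.6% and 92.7% without it), with 1.22% and 10.2% in the comparison class. Any of the 39 HOX genes was found in 12.2% and 58.7% (29.4% and 81.0% without thinning), with 1.42% and 10.8% in the comparison class. These mesoderm genes were thus found in more of the members than of the SOX2-positive cells on both days, a class chosen to lack MESP1. The HOX genes did not set the day 3 members apart from all cells with 0 MESP1 UMIs. Their summed level at day 3 was 394 CPM in the members and 461 CPM in those cells. LHX1 (178 CPM) and HAND1 (356 CPM) were lower in those cells than in the members.

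TBXT was found in 52.5% (50.03 to 55.005%) and 24.1% (23.0 to 25.3%) of the members, and in 86.6% and 55.1% without thinning, while the comparison class gave 11.4% and 14.2%. NODAL was found in 47.4% and 6.86% (78.4% and 18.7% without thinning), whereas the comparison class, which itself expresses NODAL, gave 45.7% and 46.0%. SOX2 was found in 8.58% (7.24 to 10.1%) of the day 2 members and 0.886% (0.652 to 1.18%) of the day 3 members, or 22.4% and 3.22% without thinning. The shares of all 3 genes were lower in the day 3 members with and without thinning.

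CDH1 was found in 28.1% and 9.75% of the members (68.2% and 29.5% without thinning) and in 36.1% and 25.6% of the comparison class, which expresses CDH1. VIM was found in 37.8% and 82.1% of the members (65.03% and 94.8% without thinning) and in 40.4% and 26.7% of the comparison class, which expresses VIM as well. At day 2 the members and the SOX2-positive cells thus held VIM at like shares.

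The spread over cells was read from the UMIs of a whole list per 5000. For core pluripotency genes the median cell had 16 UMIs at day 2 and 11 at day 3, with 10th to 90th percentiles of 10 to 23 and 6 to 17. For streak genes the medians were 9 and 5, for epithelial genes 12 and 7, for mesenchymal genes 4 and 12 and for lateral and extraembryonic genes 2 and 7. The ranges overlapped: 23.3% of day 3 members had at least the day 2 median of epithelial UMIs and 19.4% at least the day 2 median of streak UMIs. These sums weigh genes by abundance, and the epithelial sum includes KRT8, KRT19, DSP and TJP1, which did not follow the junction genes. The epithelial overlap is therefore no measure of the junction genes alone. In the other direction 5.36% of day 2 members reached the day 3 median of mesenchymal UMIs and 7.69% that of lateral UMIs.

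**Figure D5:**
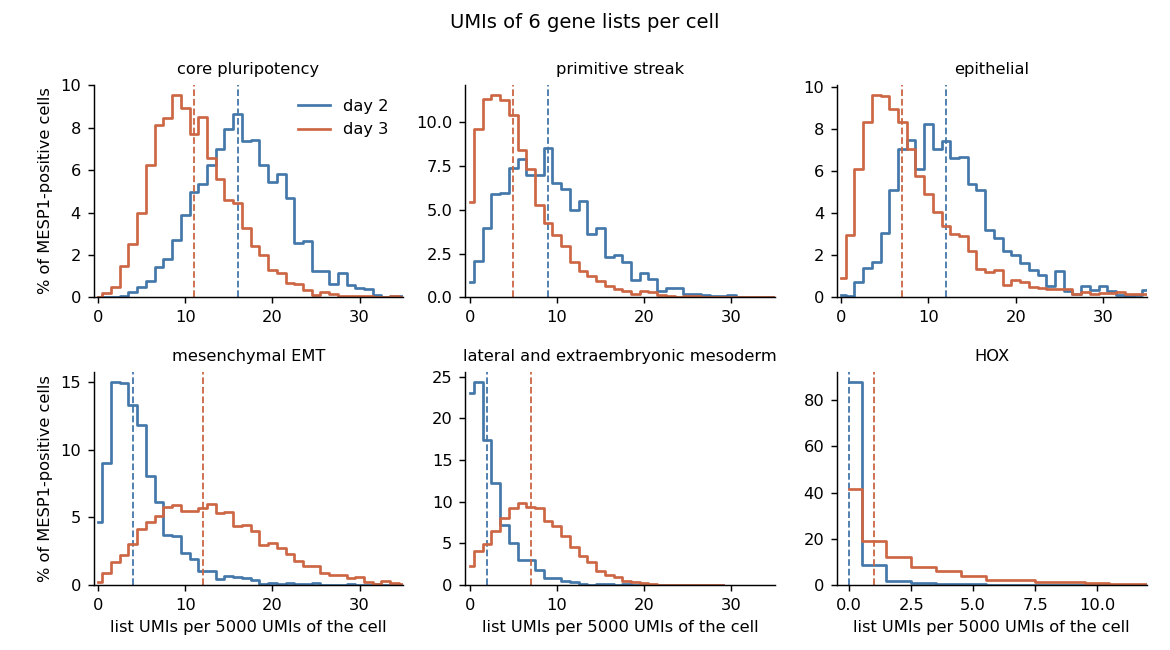
Percent of MESP1-positive cells by the number of UMIs of 6 gene lists, after each cell was thinned to 5000 UMIs, for 1586 day 2 cells (blue) and 5305 day 3 cells (orange); dashed lines are medians, and the axes end at 35 UMIs (12 for HOX). The medians move from 16 to 11 for pluripotency and from 4 to 12 for mesenchymal genes, and the distributions overlap in each panel.

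Pairs of genes were read in the same cells, with doublets kept and at 5000 UMIs per cell. LHX1 and HAND1 UMIs were both present in 8.45% (7.13 to 9.93%) of day 2 members and 59.2% (57.9 to 60.5%) of day 3 members. The products of the separate LHX1 and HAND1 shares were 5.88% and 56.7%, each below the interval of the observed share. HAND1 was found in 31.9% of day 2 members with an LHX1 UMI and 18.7% of those without. At day 3 it was found in 78.6% and 65.3% of the same groups. POU5F1 and HAND1 were both present in 20.6% and 55.5%. At day 3 the product of their separate shares was 58.1%, and HAND1 was found in 72.0% of members with a POU5F1 UMI and 86.5% of those without. POU5F1 is abundant in every class (69.9% of thinned day 3 cells with 0 MESP1 UMIs held a UMI). Whether a single UMI of it came from that cell was not tested. At day 2 HAND1 was found in 49.5% of members with a HOX UMI and 18.4% of those without, and TBXT in 38.1% and 54.5%. At day 3 HAND1 was found in 86.0% and 60.2% of the same groups and TBXT in 19.02% and 31.4%. In the members of each day a HOX UMI thus went with more HAND1 and less TBXT.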

How the data were processed

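Per the labels' protocols, single UCLA1 cells were obtained with trypsin, and libraries were built on the 10x Genomics platform. The authors deposited raw UMI counts of 36601 genes, 1 matrix per library. Cell Ranger 5.0.1 and hg38 are named in the submitters' processing notes. The sources used here give no strand setting for the counting.

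Counts were read with Python 3.11.15, summed over the cells of each class and scaled to CPM. CPM intervals are exact Poisson, ratio intervals exact conditional binomial and share intervals exact binomial. Named genes were members of 34 lists, the 12 highest and 12 lowest by the end of the ratio's interval nearest 1 at 10 CPM, and the 6 each way furthest from the all-cell ratio at 20 CPM. The MESP1 rule, the lists and the markers were chosen with earlier results of these data known. Doublets were scored by simulated pairs and removed only as an alternative, the top 0.8% per 1000 barcodes. TMM factors came from edgeR 4.0.16. The scripts were tested on simulated data. Gene positions are from GENCODE 44, which held all 445 genes looked up, and promoters from RefSeq. Day 1 (8 such cells) enters no comparison. With 1 library per day no test was run. Some list genes are not reported here.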

Additional observations from a re-analysis of the deposited data

Results flagged for a closer look

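Day 1, which enters no comparison above, also held cells with at least 2 MESP1 UMIs: 8 of 3677 kept cells (0.218%, exact binomial 95% interval 0.0940 to 0.428%). These 8 cells had 2 to 4 MESP1 UMIs and a median of 68346 UMIs in total, against 42295 for all kept day 1 cells. No background share was measured for day 1, and the part of depth was not tested. All 8 held MIXL1 UMIs, 6 held TBXT, 3 HAND1, 1 LHX1 and 5 SOX2. They are listed because no comparison uses that library.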

How the results depend on the processing

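Of 1265 genes at least 2-fold apart, 0 changed sign under the 8 alternatives that change the cells or their weights. The other 6 (scaling, level and fold) leave each ratio as it was or move all of them by under 0.05 on the log2 scale, so they could not turn a sign. The counts of 630 higher and 635 lower genes were 1307 and 1366 at 1.5-fold, 309 and 236 at 3-fold, 1027 and 1291 with a level of 1 CPM, and 484 and 410 with 10 CPM, as a wider or narrower rule must give. They were 511 and 548 among cells with at least 5 MESP1 UMIs, where 1032 (81.6%) of the 1265 genes were still called, and 699 and 646 with day 3 weighted to the day 2 MESP1 counts, where 1232 were. TMM and median-of-ratios scaling gave 654 and 604, and 672 and 590, and the median over the genes tested was then 0.086 and 0.097 in place of 0.058 (log2). Removing likely doublets left 1414 and 4886 members with 630 and 622 genes. Shares of cells depend on depth, and those of gene pairs are given thinned only. Ratios of genes near 0 at day 2 rest on few UMIs, as their intervals show. No paired analysis was possible because each day has 1 library.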
